A study of Mus musculus with 6 samples.

Results

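Eph receptors are receptor tyrosine kinases and ephrins are their membrane-bound ligands, so signals pass between cells that touch. Members of the A class of ephrins are held in the membrane by a lipid anchor and mostly bind EphA receptors, while ephrins of the B class span the membrane and mostly bind EphB receptors, and both partners can signal into their own cell. In the vertebrate embryo these contacts set tissue boundaries, for example between somites, between hindbrain segments and between arteries and veins. EphB receptors are known as targets of Wnt and beta-catenin signalling in the mouse intestinal crypt.

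The genes described here are Epha2, Epha4, Epha7, Ephb2, Ephb3, Ephb4, Efna1, Efna5, Efnb1 and Efnb2, a set of 10 chosen by name, and their members are all probe sets annotated with one of these symbols alone. That gave 23 of the 45037 probe sets on the array, for 9 of the 10 genes, since Ephb2 is not listed in the annotation used here. Each probe set is a group of short probes that reports 1 transcript or part of it. Their signals were compared between 3 pools of Wnt3a null embryos and 3 pools of wild-type embryos, both on a mixed C57BL/6 and 129/Sv background, from embryonic day 7.75 to 8 with 0 to 2 somites. Each pool joined amplified RNA from the dissected node and primitive streak of 3 embryos of 1 genotype, so there were 9 embryos per genotype. Wnt3a is a secreted signalling protein made in the streak, and the comparison asks how expression in this region differs without it.

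Median signals of the pools ran from 77.7 to 86.1 in null and from 73.6 to 81.0 in wild type, and log2 signals of all probe sets correlated at 0.903 to 0.915 within a genotype and at 0.902 to 0.912 between genotypes. The Wnt3a probe set itself read 961, 761 and 1009 in null, against 864, 1058 and 996 in wild type (log2 difference -0.10, adjusted p = 1.00). The sources used here do not give which part of the transcript it covers, so it does not check the labels. For Gapdh, signal at the 3' end over that at the 5' end, which grows as RNA breaks down, came to 2.09 to 2.39 in null, against 2.51 to 3.00 in wild type. The same ratio for actin overlapped, at 2.38 to 3.83 in null, against 2.68 to 3.69 in wild type. Defining genes of the labelled tissue were measured in all pools, among them Fgf4 at 706 to 889 in null, against 987 to 1527 in wild-type pools and Foxa2 at 361 to 598 in null, against 302 to 406 in wild-type pools, whereas Nog was dim at 6.80 to 31.6 in null, against 3.31 to 4.23 in wild-type pools.

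No probe set of the family passed the test between genotypes after adjustment. The limma test, adjusted over all 45037 probe sets, called 0 of the 23 lower and 0 higher in null pools, and it also called 0% of all probe sets, so the count says nothing particular to the family. At an unadjusted p under 0.05 stood 4 of the 23, with lower values for 1 probe set of Efna1 and 2 of Epha7 and a higher value for 1 probe set of Efnb2, where 5.05% of all probe sets had such a p, 2.2% with lower and 2.84% with higher values. That count was lower when 1 pool was left out: it was 0 without null pool 1, without wild-type pool 2 or without wild-type pool 3, 1 without null pool 2 or null pool 3, and 3 without wild-type pool 1. Fewer arrays also estimate the error less well, so p can rise where a difference hardly moves. The brightest Efnb2 probe set, at a log2 difference of 0.68 with all pools, had 0.66 without null pool 1 or wild-type pool 3. Without wild-type pool 2 it had 0.50. The brighter Efna1 probe set had -0.94 with all pools. Without null pool 1, wild-type pool 2 or wild-type pool 3 it had -0.66, -0.74 or -0.89. The count alone does not separate a smaller difference from a less certain error. A fit that took pools of 1 replicate number as pairs and let the error follow the signal (replicate block, trend and robust options) called 0.0488% of all probe sets and again 0 of the 23, with a smallest adjusted p of 0.173 for Efnb2. In that fit 4 of the 23 had an unadjusted p under 0.05, and 7.67% of all probe sets did. They were not the same 4 as in the planned fit. They were the brighter Efna1 probe set (0.00246), the 2 bright Efnb2 probe sets (0.000491 and 0.0349) and 1 of Epha4 (0.0129). The 2 Epha7 probe sets had 0.231 and 0.0553 in that fit. Values were lower in null for 8 of the 23 probe sets and higher for 15, with a median log2 difference of 0.13, against 0.01 over all probe sets. The groups did not overlap for 3 of the 23, which is 13.0%, 2 with null lower and 1 with null higher, and for 9.98% of all probe sets, 4.41% with null lower and 5.57% with null higher. All 3 replicate pairs differed in 1 direction for 8 of the 23, or 34.8%, 5 lower and 3 higher, and for 28.7% of all probe sets, 13.7% lower and 15% higher.

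**Figure D1:**
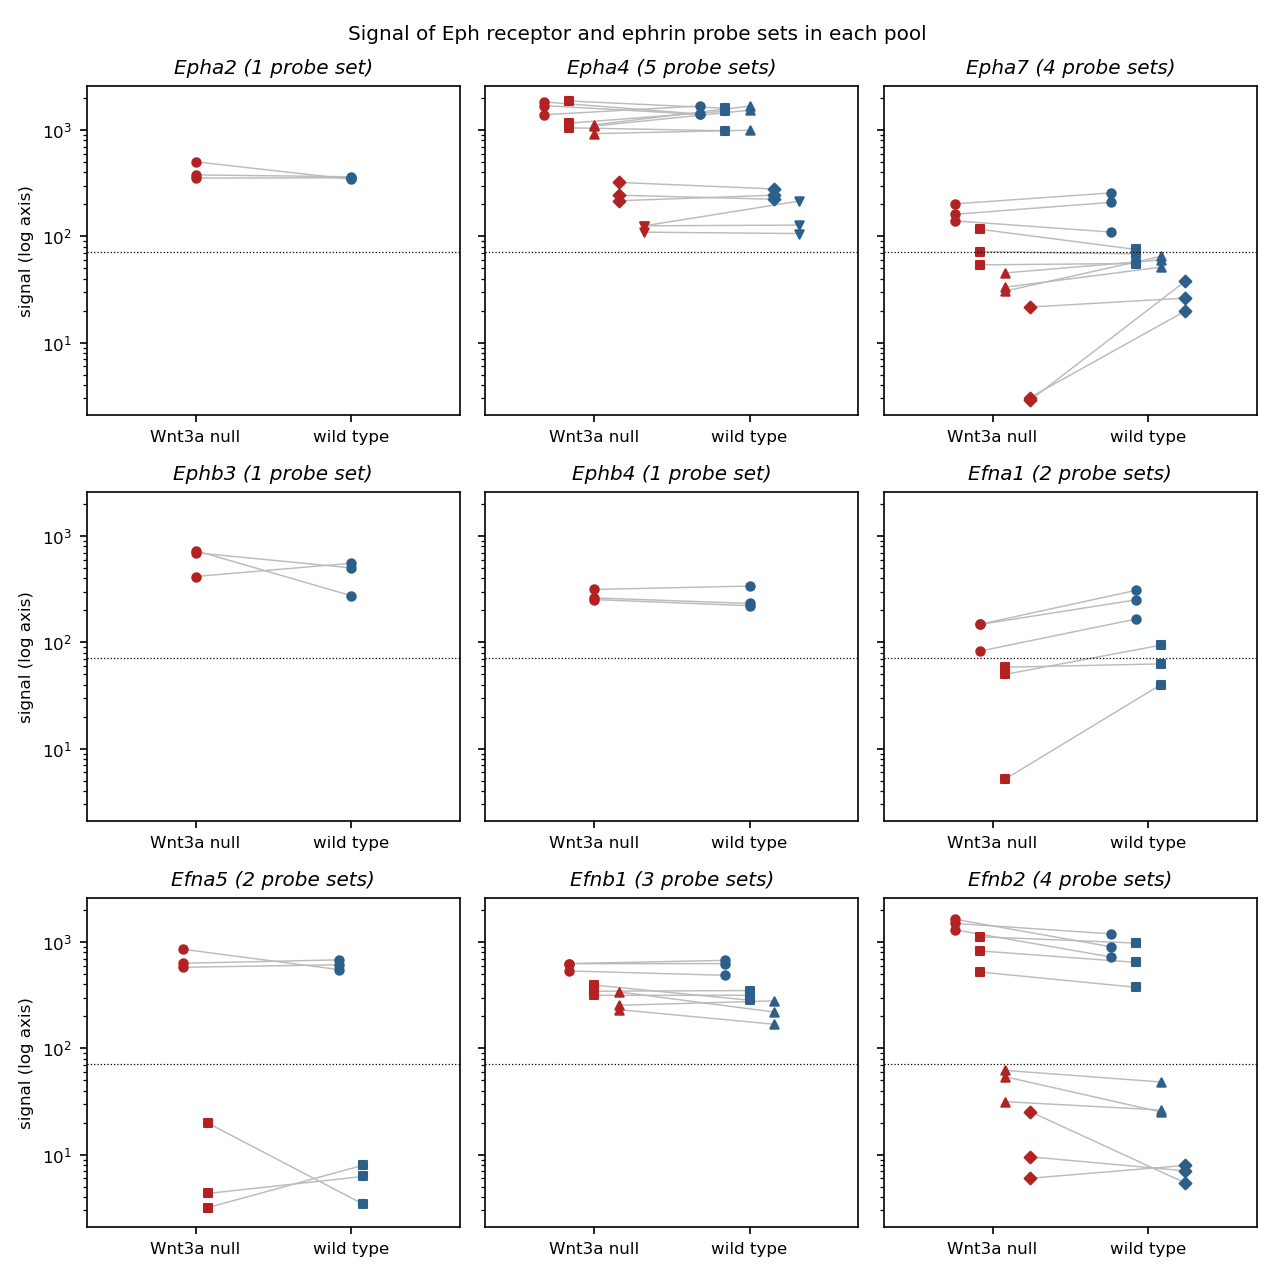
Signal of each of the 23 probe sets, on a log axis, in the 3 Wnt3a null pools (red, left) and the 3 wild-type pools (blue, right) of each gene, with a marker shape per probe set and grey lines joining pools of 1 replicate number. The dotted line marks a signal of 71.5, the middle of all probe sets. The top Efnb2 probe set lies at 1301 to 1637 in null and at 724 to 1194 in wild-type pools, and the top Efna1 probe set at 82.8 to 148 in null and at 165 to 308 in wild-type pools.

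The stretches of 250 bases before the annotated start sites are shown for the 3 genes with an unadjusted p under 0.05 and for Epha2, because Wnt signals act through TCF and LEF factors and Epha2 holds the only match to their core letters among these genes. The sequences are those of RefSeq on GRCm38.p6, written in the direction of transcription. Capitals mark a match on either strand to CTTTGA or CTTTGT for TCF and LEF factors, to TTCCCAC for the Notch partner RBPJ, or to TCACACC for T-box factors; no matches overlapped.
Efnb2 (chr8:8661243-8661492, minus strand): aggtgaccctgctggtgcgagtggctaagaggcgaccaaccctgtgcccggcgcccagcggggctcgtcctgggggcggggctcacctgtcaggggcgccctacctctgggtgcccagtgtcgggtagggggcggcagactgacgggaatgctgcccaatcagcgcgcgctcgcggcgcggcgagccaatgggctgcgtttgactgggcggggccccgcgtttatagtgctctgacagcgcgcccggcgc
Efna1 (chr3:89280952-89281201, minus strand): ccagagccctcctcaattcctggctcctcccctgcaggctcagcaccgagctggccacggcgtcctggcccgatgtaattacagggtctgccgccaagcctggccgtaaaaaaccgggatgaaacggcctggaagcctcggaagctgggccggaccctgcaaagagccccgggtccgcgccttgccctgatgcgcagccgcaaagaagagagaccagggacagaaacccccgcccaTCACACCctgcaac
Epha7 (chr4:28812881-28813130, plus strand): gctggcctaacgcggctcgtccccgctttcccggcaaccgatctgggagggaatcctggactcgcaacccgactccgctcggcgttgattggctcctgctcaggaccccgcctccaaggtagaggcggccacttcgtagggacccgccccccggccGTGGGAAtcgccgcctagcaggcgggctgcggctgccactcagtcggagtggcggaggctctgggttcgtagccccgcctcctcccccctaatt
Epha2 (chr4:141300971-141301220, plus strand): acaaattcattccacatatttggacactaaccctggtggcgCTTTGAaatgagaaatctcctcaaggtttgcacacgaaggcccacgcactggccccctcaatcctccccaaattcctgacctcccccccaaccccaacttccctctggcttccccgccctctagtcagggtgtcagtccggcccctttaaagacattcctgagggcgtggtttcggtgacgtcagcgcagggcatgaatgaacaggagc
TCF or LEF letters were found in 1 of 12 such windows of the 10 genes, against 27.6% of 32851 windows of all genes. RBPJ letters were found in 2 of the 12 windows, both of them overlapping windows of Epha7, against 5.42% of all windows, and T-box letters in 1 of the 12, at Efna1, against 3.33%. The 12 windows held 55.6% to 74.8% G and C, against a median of 52.4% over all windows. These shares were not matched for base composition, so they do not show a lack or excess of matches particular to these genes. Efna1 has another window, at chr3:89279646-89279895, which is not shown and held no match to any of these letters. The other window of Epha7 is not shown either. A match of letters is a description of the sequence, and the array does not show which start site was used.

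Efnb2 encodes ephrin-B2, the ligand of EphB4 that marks arteries and also the posterior part of each somite in the mouse. Its brightest probe set had signals of 1498, 1301 and 1637 in the null pools, against 1194, 724 and 903 in the wild-type pools. All 3 null pools lay above all 3 wild-type pools. The mean signal was 1478 ± 169 in null and 941 ± 237 in wild type (SD, n = 3 each), 1.60-fold higher in null, a log2 difference of 0.68 with a standard error of 0.26 and a 95% interval of 0.02 to 1.33 that covers this probe set alone (limma, unadjusted p = 0.0453, adjusted p = 0.987). The null pool was the higher of its replicate pair each time, by 0.33, 0.84 and 0.86 on the log2 scale.

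A second bright Efnb2 probe set had 1122, 522 and 825 in null pools and 979, 376 and 644 in wild-type pools. Here the genotypes overlapped, because the replicate numbers differed widely in both, while the null pool of each pair was again the higher, by 0.20, 0.47 and 0.36 on the log2 scale (log2 difference 0.34 ± 0.47 SE, adjusted p = 1.00). Of the pair of dim Efnb2 probe sets, the brighter had 54.1, 31.5 and 62.1 in null and 25.3, 26.3 and 48.3 in wild-type pools, higher in the null pool of each pair but with overlapping groups. The last had signals of 9.54, 6.00 and 25.4 in null and 7.04, 7.93 and 5.41 in wild-type pools, too close to the floor of the array to order. The difference of the second bright probe set was 0.08 without null pool 1 and -0.02 without wild-type pool 2, and of the 4 intervals only that of the brightest probe set left out 0.

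Marker sums of other tissues also stood apart between these pools, and in a dissected piece of embryo fewer cells of a type cannot be told apart from less RNA per cell. Summed signals of 5 heart progenitor genes were 2983 to 3559 in null, against 1649 to 1914 in wild-type pools, with Tbx20 at 1170, 1184 and 1658 in null and 486, 670 and 777 in wild type. Of these 5, 4 were higher in value in null and 1 was lower, the dim Nkx2-5, at 50.9, 40.8 and 34.9 in null, against 69.3, 67.0 and 38.2 in wild type. Summed signals of 7 endothelial genes were 2031 to 2193 in null, against 1232 to 1877 in wild-type pools. That sum rests mostly on Etv2, a regulator of endothelial fate, at 817 to 1196 in null and 582 to 1162 in wild type, and on Kdr, a receptor of endothelial progenitors, at 572 to 663 in null and 355 to 527 in wild type. The vessel genes of the list overlapped between genotypes. Pecam1 was dim at 8.27 to 51.7 in null, against 3.45 to 12.7 in wild type, and Tie1 at 2.35 to 32.2 in null, against 2.97 to 22.9 in wild type. Tek was above a signal of 71.5, the middle of all probe sets, in all pools, at 122 to 215 in null, against 74.3 to 287 in wild type. Cdh5 had 43.0 to 266 in null, against 24.9 to 116 in wild type, and was below that middle in null pool 3 and wild-type pool 1. Neural plate genes summed to 6661 to 8515 in null, against 3908 to 5016 in wild-type pools, led in p by Irx3 and Zic5. Of the 7, 6 were higher in value in null and 1 was lower, the neurogenic factor Neurog2, at 22.1, 38.1 and 30.3 in null, against 114, 40.7 and 74.0 in wild type, without overlap (unadjusted p = 0.0342). Limma called 0 genes of the heart, endothelial and neural lists, while the fit with replicate block, trend and robust options called 1, 0 and 2 of them, against 0.0488% of all probe sets. These were Tbx20 among the heart genes (adjusted p = 0.0313 in that fit), and Irx3 (0.00516) and Otx2 (0.0373) among the neural genes. Zic5 was not called (0.128). Otx2 had 1367, 216 and 468 in null and 129, 87.6 and 60.7 in wild type. The part of any of these lists, or of the Gapdh ratio, in the Efnb2 values was not tested.

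**Figure D2:**
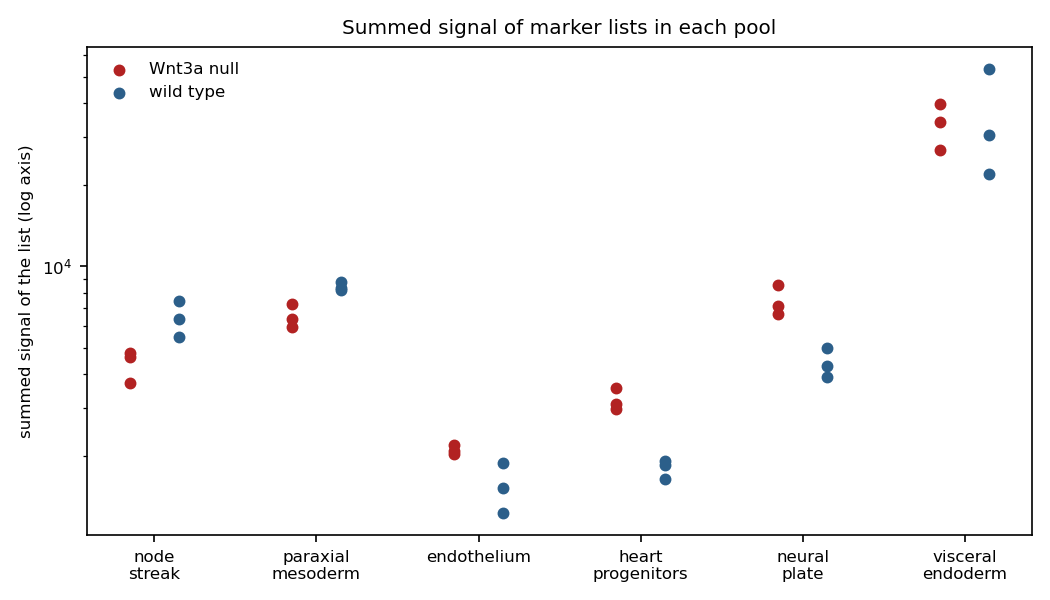
Summed signal, on a log axis, of the measured genes of 6 marker lists in each Wnt3a null pool (red, left) and wild-type pool (blue, right). Node and streak sums were 3705 to 4787 in null and 5494 to 7465 in wild type, heart and neural sums were higher in all null pools, and visceral endoderm sums overlapped at 26778 to 39530 in null and 21851 to 53294 in wild type.

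Efna1 encodes ephrin-A1, a ligand held at the cell surface by a lipid anchor and bound by EphA2 among other EphA receptors. Its brighter probe set had 82.8, 148 and 148 in the null pools, against 165, 308 and 251 in the wild-type pools, and the groups did not overlap. The mean was 126 ± 37.5 in null and 241 ± 71.8 in wild type (SD, n = 3 each), 1.92-fold lower in null, a log2 difference of -0.94 ± 0.37 SE with an interval of -1.86 to -0.02 (limma, unadjusted p = 0.0464, adjusted p = 0.987). Per pair the difference was -0.998, -1.06 and -0.77, close to 1 value in spite of the spread between replicate numbers. The second Efna1 probe set, a dim one, had 5.16, 50.0 and 58.4 in null and 39.9, 93.9 and 62.7 in wild-type pools. It was lower in value in the null pool of every pair, with overlapping groups. Its log2 difference of -1.32 ± 1.02 SE rested on null pool 1, near the floor at 5.16, and was -0.19 without that pool.

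Genes of the streak and of presomitic mesoderm also had lower summed signals in null pools: 10 node and streak genes summed to 3705 to 4787 in null and 5494 to 7465 in wild type, with 7 of the 10 lower in value, and 10 paraxial mesoderm genes to 5983 to 7230 in null and 8204 to 8731 in wild type, with 6 of the 10 lower. The largest part of the paraxial sum was Dll1, at 2554, 3416 and 2602 in null and 4598, 5321 and 3842 in wild type. Limma called 0 genes of both lists. The fit with replicate block, trend and robust options called 0 node and streak genes and 1 paraxial gene, against 0.0488% of all probe sets. That gene was Dll1 (adjusted p = 0.0460 in that fit). The paraxial list did not move 1 way. At an unadjusted p under 0.05 (limma) stood 3 of its genes with lower and 3 with higher values, against 4.46% of all genes in either direction. By p the leading genes of these lists were Nog and Fgf4, and Tbx6 and Ripply2, of which Tbx6, a regulator of paraxial mesoderm, had 704, 652 and 612 in null and 1107, 1120 and 1069 in wild-type pools, and Ripply2, a repressor that acts where somites form, had 253, 393 and 332 in null and 74.3, 50.1 and 189 in wild-type pools. The part of these lists in the Efna1 values was not tested.

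Efna5 encodes ephrin-A5, a lipid-anchored ligand known for guiding retinal axons. The bright probe set had 632, 855 and 579 in null and 680, 551 and 612 in wild-type pools. The ranges overlapped, and the log2 difference was 0.15 with an interval of -0.45 to 0.75 (adjusted p = 1.00), whose ends are 1.37-fold lower and 1.68-fold higher in null. The other Efna5 probe set was at 3.18 to 19.8 in null, against 3.41 to 7.97 in wild-type pools, at the floor in both.

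Efnb1 encodes ephrin-B1, a transmembrane ligand whose gene lies on the X chromosome, and it had 3 bright probe sets. The brightest had 535, 628 and 626 in null and 487, 673 and 627 in wild-type pools, which is nearly the same range. Its log2 difference was 0.01 with an interval of -0.55 to 0.57. The next had 315, 345 and 394 in null and 316, 350 and 284 in wild type (0.15 ± 0.21 SE), and the last had 231, 340 and 254 in null and 169, 220 and 280 in wild type (0.32 ± 0.29 SE). Wild-type pool 1 had the lowest signal of all pools on the brightest and on the last of these probe sets. That pool was also the one with next to no signal of the Y-linked gene Eif2s3y, at 4.31 against 1053 to 1788 in null pools and 1325 to 1448 in the other wild-type pools, and with a Xist signal of 7440 against 1871 to 5047 in null pools and 2054 to 2408 in the other wild-type pools. Without wild-type pool 1 the log2 differences of the 3 Efnb1 probe sets, in the same order, were -0.13, 0.15 and 0.13, with adjusted p of 0.996 to 0.997. The part of the sex makeup of the pools in the Efnb1 values was not tested further.

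EphA4, made by Epha4, binds ephrins of both classes and is known in the mouse to sit in the forming somite under control of Mesp2. It had 5 probe sets, all above the middle of the array, and they did not point 1 way. The brightest had 1393, 1697 and 1838 in null and 1685, 1406 and 1413 in wild-type pools, so the log2 difference was 0.13 with an interval of -0.42 to 0.67. Another had 1091, 1120 and 926 in null and 1537, 1678 and 997 in wild-type pools. That probe set was the only one of the 5 lower in the null pool of every pair, with log2 differences of -0.49, -0.58 and -0.11 and groups that overlapped through wild-type pool 3 (log2 difference -0.39 ± 0.28 SE, adjusted p = 1.00). The remaining 3 had log2 differences of -0.02, 0.05 and -0.25. In the same pools Mesp2 had 245, 142 and 318 in null and 61.0, 86.0 and 157 in wild type, with an unadjusted p of 0.0421 and an adjusted p of 0.987 (limma).

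**Figure D3:**
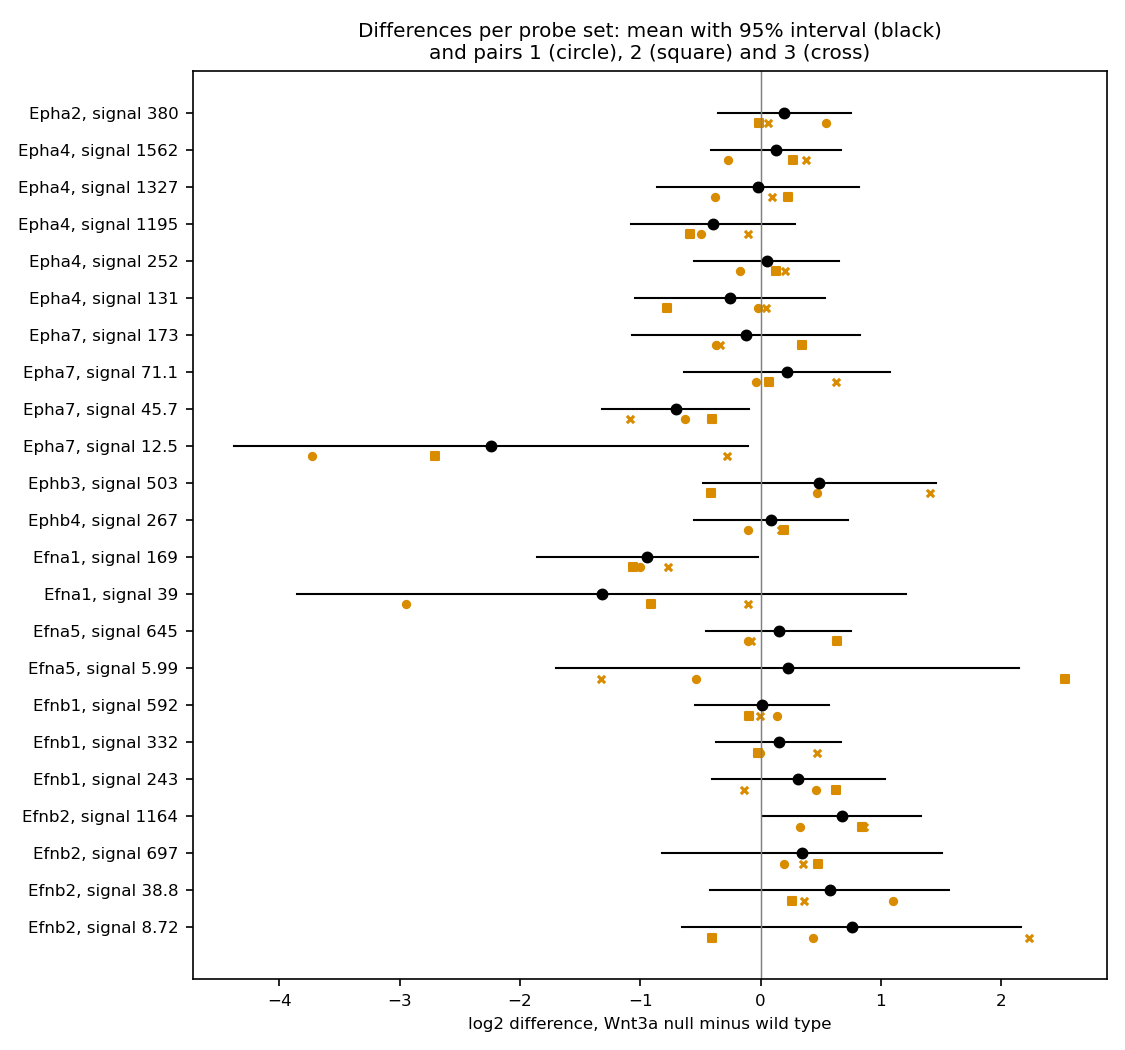
Log2 difference, Wnt3a null minus wild type, for each of the 23 probe sets (black point, with its 95% interval as a line) and for the 3 replicate pairs (orange). The signal beside each gene is the geometric mean over the 6 arrays, and intervals are widest for dim probe sets, such as -4.37 to -0.10 for the dimmest of Epha7.

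EphA2, made by Epha2, is known from the node and distal streak of the mouse gastrula. Its single probe set had 503, 353 and 379 in null and 345, 355 and 364 in wild-type pools. Null pool 1 alone lay apart from the other 5 arrays, and the difference of 0.20 had an interval of -0.36 to 0.75 on the log2 scale (adjusted p = 1.00). Without null pool 1 the log2 difference was 0.04.

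Epha7 encodes EphA7, a receptor of the neural plate for ephrin-A5 that is also made in truncated forms in the mouse. Its 4 probe sets disagreed, and only the brightest was above the middle of the array, with 161, 140 and 202 in null and 209, 110 and 256 in wild-type pools (log2 difference -0.12, interval -1.07 to 0.83). A dim probe set had 33.3, 45.3 and 30.5 in null, against 51.3, 60.0 and 64.7 in wild-type pools, with no overlap of the groups, and was 1.63-fold lower in null (log2 difference -0.70 ± 0.25 SE, limma, unadjusted p = 0.0306, adjusted p = 0.963). On the log2(signal + 50) scale its difference was -0.33 (limma, unadjusted p = 0.0665). Its unadjusted p was 0.187 with limma's trend and robust options, and 0.231 with the replicate block added to them. The dimmest had 2.86, 3.05 and 21.6 in null and 37.9, 19.9 and 26.3 in wild-type pools, so 2 null pools were near the floor and the third was inside the wild-type range (log2 difference -2.24 ± 0.86 SE, adjusted p = 0.987). That size depends on signals at the floor: it was -0.41 on the log2(signal + 50) scale, with an unadjusted p of 0.0619, and -3.22 to -1.49 when an array or pair was left out. The remaining probe set went the other way in value, at 54.0, 71.7 and 116 in null and 55.5, 68.5 and 75.3 in wild type. The sources used here do not give where on the transcript each probe set lies.

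EphB3, made by Ephb3, is a receptor of B-class ephrins known to position cells in the intestinal crypt. Its probe set had 697, 416 and 730 in null and 502, 555 and 275 in wild-type pools. Null pools 1 and 3 lay above all wild-type pools and null pool 2 within them, and the pairs went both ways, at 0.47, -0.41 and 1.41 on the log2 scale. The difference was 0.49 ± 0.39 SE with an interval of -0.48 to 1.46, so that a 2.74-fold higher level in null was still inside it (adjusted p = 1.00). It was 0.18 without wild-type pool 3 and 0.75 without null pool 2, and 0.03 to 0.94 over all fits that left out an array or pair. EphB4, made by Ephb4, is the receptor of ephrin-B2 that marks veins. It had 315, 253 and 262 in null and 338, 221 and 232 in wild-type pools, in overlapping ranges, with a log2 difference of 0.09 and an interval of -0.55 to 0.72.

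The other genes of the family, 12 in number, had 22 probe sets, of which 9 were at or above the middle of the array. The limma test called 0 of the 22, and the groups did not overlap for 3 of them, or 13.6%, against 9.98% of all probe sets. By unadjusted p the leading values were 1 of 4 Epha3 probe sets, at 24.0, 25.7 and 42.0 in null and 18.7, 2.48 and 4.37 in wild type (unadjusted p = 0.0269), and 1 of 2 Efna3 probe sets, at 137, 91.6 and 87.5 in null and 121, 192 and 191 in wild type (unadjusted p = 0.0766). All 4 Epha3 probe sets were below the middle of the array, and this one was near the floor in wild-type pools 2 and 3. The others disagreed, with log2 differences of -0.33, 0.88 and -0.79. Efna2, another A-class ligand, had 425, 509 and 404 in null and 317, 392 and 271 in wild-type pools on its brighter probe set, 1.37-fold higher with no overlap (unadjusted p = 0.105, adjusted p = 1.00). The second Efna2 probe set was also higher in the null pool of each pair, with overlapping groups, at a log2 difference of 0.29. Genes for EphB1 and ephrin-B3, a receptor and a ligand of the B class, had log2 differences of 0.19 and 0.01.

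Signalling partners, the kinases, adaptors, exchange factors and PDZ proteins that act below Eph receptors and ephrins, were measured for all 38 genes listed, 18 lower and 20 higher in value with a median log2 difference of 0.0062, against 0.0050 over all 18193 genes. None was called by limma (0 at an unadjusted p under 0.05 as well, against 4.46% of all genes), and 5 of the 38 had groups that did not overlap, or 13.2%, against 10.1% of all genes. The gene with the smallest p was Grip2, whose PDZ protein binds the tail of B-class ephrins, at 153, 105 and 84.4 in null and 161, 234 and 176 in wild-type pools (unadjusted p = 0.0519). Its relative Grip1 was lower in value as well, at 263, 287 and 356 in null and 359, 371 and 393 in wild type. Tiam1, an activator of Rac, had 530, 522 and 726 in null and 771, 848 and 904 in wild-type pools, without overlap, 1.43-fold lower (log2 difference -0.52 ± 0.23 SE, unadjusted p = 0.0670, adjusted p = 1.00). Rgs3, a regulator of G proteins that binds B-class ephrins, had 446, 550 and 386 in null and 340, 344 and 331 in wild-type pools, also without overlap. Ptpn13, a phosphatase with PDZ domains, had 1550, 1768 and 1634 in null and 803, 1771 and 966 in wild type, where wild-type pool 2 was at the null level. Rin1, a Rab exchange factor, was dim at 90.9, 45.1 and 90.0 in null and 49.7, 36.2 and 32.5 in wild type.

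**Figure D4:**
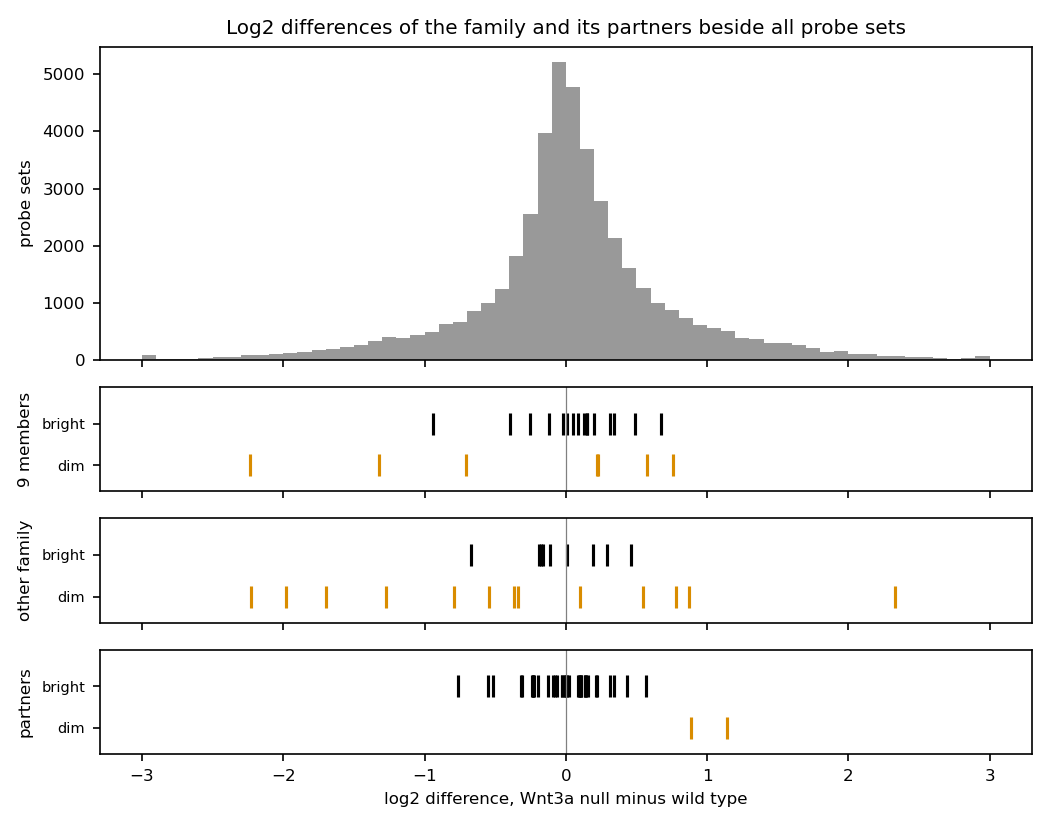
Log2 difference, Wnt3a null minus wild type, of all 45037 probe sets (grey bars, with values beyond 3 in either direction placed in the end bars), of the 23 probe sets of the family set, of the 22 probe sets of its other genes and of the 38 partner genes. Black ticks are probe sets at or above the middle of the array and orange ticks those below it, which hold the extreme values of both family sets.

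Profiles most like those of the family were sought among 19341 probe sets at or above the middle of the array, as the root mean square difference of log2 signals over the 6 arrays after each profile was centred on its own mean. For the brightest Efnb2 probe set the closest were Rwdd3 (0.10), Cdc73 (0.10) and Pard6b (0.12), where the median candidate stood at 0.48. The closest to the brighter Efna1 probe set were Sulf2 (0.17), an extracellular sulfatase, Ripk3 (0.18), a kinase of cell death, and Evx1 (0.21), a homeobox gene of the streak, with a median of 0.66. For Ephb3 the closest were Csnk2a1 (0.12), Gfm2 (0.14) and Alox5ap (0.14), with a median of 0.53. With 6 arrays and this many candidates close profiles are found for many genes, so the names are a description of these arrays.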

How the data were processed

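The values the authors deposited are linear signal intensities, 1 for every probe set in each pool. RMA is named, with no version, in the submitters' processing notes, although these intensities are not logged and every array has a mean of 500 once 2% is trimmed from both ends, so the sources used here do not settle how they were scaled. The design assumed log2 values, so log2 of the intensity was taken, with no floor. Per the labels' protocols, 30 to 50 ng of RNA of each embryo was amplified and 600 ng of amplified RNA was pooled.

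Of 45101 probe sets 64 controls were left out; of the other 45037, 34945 have 1 gene symbol, 932 several and 9160 are not listed. The 9 genes matched RefSeq (GRCm38.p6) by gene ID. The test of null against wild type used limma 3.58.1 under R 4.3.3 (lmFit, then eBayes, two-sided, Benjamini-Hochberg over all probe sets, threshold 0.05). It and the fit with replicate block, trend and robust options were also run on simulated data, with a check only on the size of planted differences. That check sets no bound on missed or false calls. Intervals are limma's at 95%, for 1 probe set each. The number of arrays, 3 per genotype, limits the precision. Other lists were represented by the brightest probe set of each gene.

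Both genotypes have replicates 1, 2 and 3. Deviations from the genotype means correlated within a number at 0.422, 0.454 and 0.282 over 18088 probe sets averaging above 7 in log2, which passes the bound of 0.1, and at 0.0537, 0.0524 and 0.0338 over all, which does not. Pairing was taken from the first; what pools of 1 number have in common is not labelled. Members, lists and named genes (all members, up to 4 probe sets of the rest of the family and 6 partners by smallest p, up to 2 genes per marker list, 3 likest profiles for 3 members) were chosen with earlier results of these data known. Foxa2, Etv2, Cdh5, Tek, Tie1, Mesp2, Nkx2-5, Neurog2, Ephb1, Efnb3, Efna4, the sex-linked genes and the further probe sets of Efna2 and Epha5 were named after their values were seen. The same holds for Dll1, Otx2 and the further probe sets of Epha3. Alternatives were the block, trend and robust options, log2(signal + 50), a filter at the median, median centring, cyclic loess, array weights, 1 probe set per gene, a threshold of 0.1 and leaving out arrays or pairs.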

Additional observations from a re-analysis of the deposited data

How the results depend on the processing

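Under every alternative listed in the methods, 0 probe sets of the family were called lower and 0 higher in null pools. Their smallest adjusted p was 0.963 in the planned fit, and over the alternatives it ran from 0.105 (the replicate block with trend and robust options, without replicate 1) to 1.00 (trend and robust options alone, or without null replicate 1). The count over all probe sets, 0 as planned and 0 with the replicate block alone, was 1 with trend and robust options, 22 when the replicate block was added to them, and 16 when that fit, chosen after seeing the data, used log2(signal + 50); leaving out 1 pair from the paired fit gave 21, 138 and 27 (without replicates 1, 2 and 3), and leaving out 1 array from the planned fit gave 0. The block changed no call of the family. Of 416 log2 differences of single probe sets under an alternative, 384 kept their sign and side of the threshold and 32 changed sign, 28 of them when an array or pair was left out; none of the 32 passed a threshold in either setting. Signs turned with median centring for Efnb1 (-0.041) and Epha4 (-9.5e-05), with cyclic loess for Efnb1 (-0.016), and with array weights for the dim Efna5 probe set (-0.039). When 1 array was left out, the values that changed sign included -0.58 for the dim Efna5 probe set without null replicate 2, while it was 0.74 without null replicate 3; the bright Efna5 probe set had -0.017 and 0.26 in the same fits. Without null replicate 3 Epha4 had 0.145 and -0.11 and Epha7 -0.084, and without wild-type replicate 2 Efnb2 (second probe set) had -0.017, Ephb4 -0.027 and Epha4 0.042. In the paired fit, changed signs were -0.051 for Efnb1 and 0.0041 for Epha7 without replicate 1, -0.093 for Efna5 and 0.010 for Epha4 without replicate 2, and -0.011 for Efnb1 and -0.024 and -0.0011 for Epha4 without replicate 3. Over all these omissions the ranges were -0.93 to 1.00 and -0.09 to 0.28 for Efna5, -0.01 to 0.24 and -0.13 to 0.11 for Efnb1, -0.02 to 0.67 for Efnb2, -0.03 to 0.28 for Ephb4, -0.27 to 0.16, -0.11 to 0.18 and -0.46 to 0.04 for Epha4, and -0.48 to 0.13 and -0.08 to 0.47 for Epha7. The cause was not tested. By contrast the brightest Efnb2 probe set kept a log2 difference of 0.50 to 0.86 and the brighter Efna1 probe set -1.19 to -0.66 under these omissions. Signal over background limits the dim probe sets, whose intervals were the widest, such as -4.37 to -0.10 for the dimmest of Epha7.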

Other observations

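Epha5, a receptor for A-class ephrins, stood apart in 1 wild-type pool. Wild-type pool 3 had signals of 314, 349 and 151 on 3 of its 4 probe sets, while the 3 null pools and the other 2 wild-type pools had at most 68.0, 57.2 and 9.24 on them. On the remaining probe set the same pool had 119, against 36.9 to 87.6 in null pools and 17.1 to 48.9 in the other wild-type pools. The log2 differences between genotypes for these 4 probe sets ran from -2.23 to 0.10, with a smallest unadjusted p of 0.112 (limma, adjusted p = 1.00). Fits without that pool were not run for Epha5.

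Efna1, Efna3 and Efna4 are 3 neighbouring protein-coding genes on chromosome 3 in RefSeq, all of them A-class ephrins. Beside the Efna1 values, the Efna3 probe sets had log2 differences of -0.67 and -0.17 and the Efna4 probe set had -0.19, all lower in value in null pools, with adjusted p of 1.00 for each (limma). The pairs were mixed for the first of these Efna3 probe sets, which was higher in null by 0.18 in pair 1, and for Efna4, higher by 0.30 in pair 2. The second Efna3 probe set was lower in the null pool of all 3 pairs, as both Efna1 probe sets were.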
